A study of Homo sapiens with 8 samples.

Results

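The clustered protocadherins are 53 of the 38637 genes in the expression table of SW1990 cells, an established human pancreatic adenocarcinoma cell line. They were taken as the protein-coding rows whose symbol is PCDHA, PCDHAC, PCDHB, PCDHGA, PCDHGB or PCDHGC followed by a number. In hg38 all 53 are annotated on chromosome 5, forward strand, between 140786136 and 141512975. The PCDHA cluster holds 15 members, 13 PCDHA genes and PCDHAC1 and PCDHAC2. The PCDHB cluster holds 16 members, and the PCDHG cluster holds 22, of which 12 are PCDHGA, 7 PCDHGB and 3 PCDHGC genes. RNA-seq of poly(A)-selected RNA covered 4 groups of 2 libraries each. Vector cells carried the empty vector and EBF2-OE cells overexpressed the transcription factor EBF2, and both pairs are numbered 2 and 3. Vehicle cells received the vehicle and GSK-LSD1 cells received GSK-LSD1, an inhibitor of the histone demethylase KDM1A, and both pairs are numbered 1 and 2. According to the titles GSK-LSD1 was given at 2000 µM, and no source used here gives the time of treatment. The study describes lower doses of this compound for another assay in SW1990 cells, so that the dose in the titles, or its unit, is in doubt. In a figure legend the study names its RNA-seq cells SW1990-luc, which are labelled with luciferase. Its text and the titles give SW1990. No label gives a genetic change to the Vehicle or GSK-LSD1 cells. Nor does any label say that the libraries of a group came from separate cultures. The p-values therefore measure the spread between these libraries, which may be technical.

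Clustered protocadherins are adhesion proteins of the cadherin superfamily that sit in the cell membrane and bind the same isoform on a neighbouring cell. They are best known in the nervous system, where each neuron uses a small choice of isoforms and thereby tells its own branches from those of other neurons. In the PCDHA and PCDHG clusters each member has a promoter and a large first exon of its own, which encodes the extracellular part and the membrane span. That exon is spliced to a set of constant exons at the end of the cluster, which encode a cytoplasmic tail common to all members. PCDHB genes have no constant exons, and each is a gene of a single exon. CTCF and cohesin bring the chosen promoter to a distant enhancer, and the locus is known for dense DNA methylation in many tumours.

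The annotation of hg38 by GENCODE gave the sequence that members share. The 15 PCDHA members share 3 exons of 59, 89 and 2721 nt, which make 2869 nt in all and end at 141012347. The 22 PCDHG members share 3 exons of 59, 89 and 2029 nt, which make 2177 nt in all and end at 141512975. The first and second shared exons of both clusters are printed here because reads from them belong to every member of a cluster alike. Capitals mark the bases that are identical at the same position in the other cluster.
PCDHA shared exon 1, chr5:140978949-140979007, forward strand: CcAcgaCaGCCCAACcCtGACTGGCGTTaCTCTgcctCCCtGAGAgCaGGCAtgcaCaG
PCDHG shared exon 1, chr5:141494807-141494865, forward strand: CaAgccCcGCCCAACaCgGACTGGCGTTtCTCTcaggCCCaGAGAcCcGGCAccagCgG
PCDHA shared exon 2, chr5:140982475-140982563, forward strand: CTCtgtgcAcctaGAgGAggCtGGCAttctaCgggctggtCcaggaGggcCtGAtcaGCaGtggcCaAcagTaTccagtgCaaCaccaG
PCDHG shared exon 2, chr5:141505393-141505481, forward strand: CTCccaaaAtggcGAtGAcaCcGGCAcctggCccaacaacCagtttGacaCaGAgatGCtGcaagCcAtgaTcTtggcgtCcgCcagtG
The first shared exons, which are coding throughout, were identical at 39 of 59 positions, or 66.1%. The second shared exons were identical at 29 of 89 positions, or 32.6%, so that these exons differ in sequence although they match in length. The third shared exons differ in length as well.

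The clusters differed in how far their members could be told apart by counts. In the PCDHA cluster, 91 of the 120 counts (15 members in 8 libraries) matched the commonest count of the cluster in that library exactly, a share of 75.8%. Counting values within 1 read of it gave 102 of 120, or 85%. In EBF2-OE 2, 14 of the 15 PCDHA members had 4 counts, and PCDHAC2 alone had more. In the PCDHB cluster, whose members share no exon, 31 of 128 counts, or 24.2%, matched it exactly, and 28 of these were counts of 0. In the PCDHG cluster 41 of 176 counts, or 23.3%, did so, and none was 0. Apart from PCDHGA1, with 118 to 194 counts, PCDHG members had 25 to 57 counts.

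The reads that all members of a cluster counted in common cannot be more than the lowest count of that cluster in a library. This lowest count was taken away from each member's count, and the remainder is called the member's own reads. It is the least that a member can have beyond the reads common to all members, and it may still hold reads shared with some of them. The member with the lowest count has 0 by this definition. The lowest PCDHA count was 8 in both Vector libraries, 4 and 3 in EBF2-OE, 4 and 5 in Vehicle, and 10 and 4 in GSK-LSD1 cells. The lowest PCDHG count was 27 and 35 in Vector, 25 and 41 in EBF2-OE, 36 in both Vehicle libraries, and 26 and 25 in GSK-LSD1 cells. Counted once for each member, the lowest count made 60.8 to 93.0% of the summed PCDHA counts and 68.9 to 80.8% of the summed PCDHG counts, which is an upper limit for the shared reads. Own reads were at most 3 in every library for 12 of 15 PCDHA and 8 of 22 PCDHG members, while 5 of 16 PCDHB members had at most 3 counts in every library. How reads that overlap several genes were counted is not given in the sources used here.

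**Figure D1:**
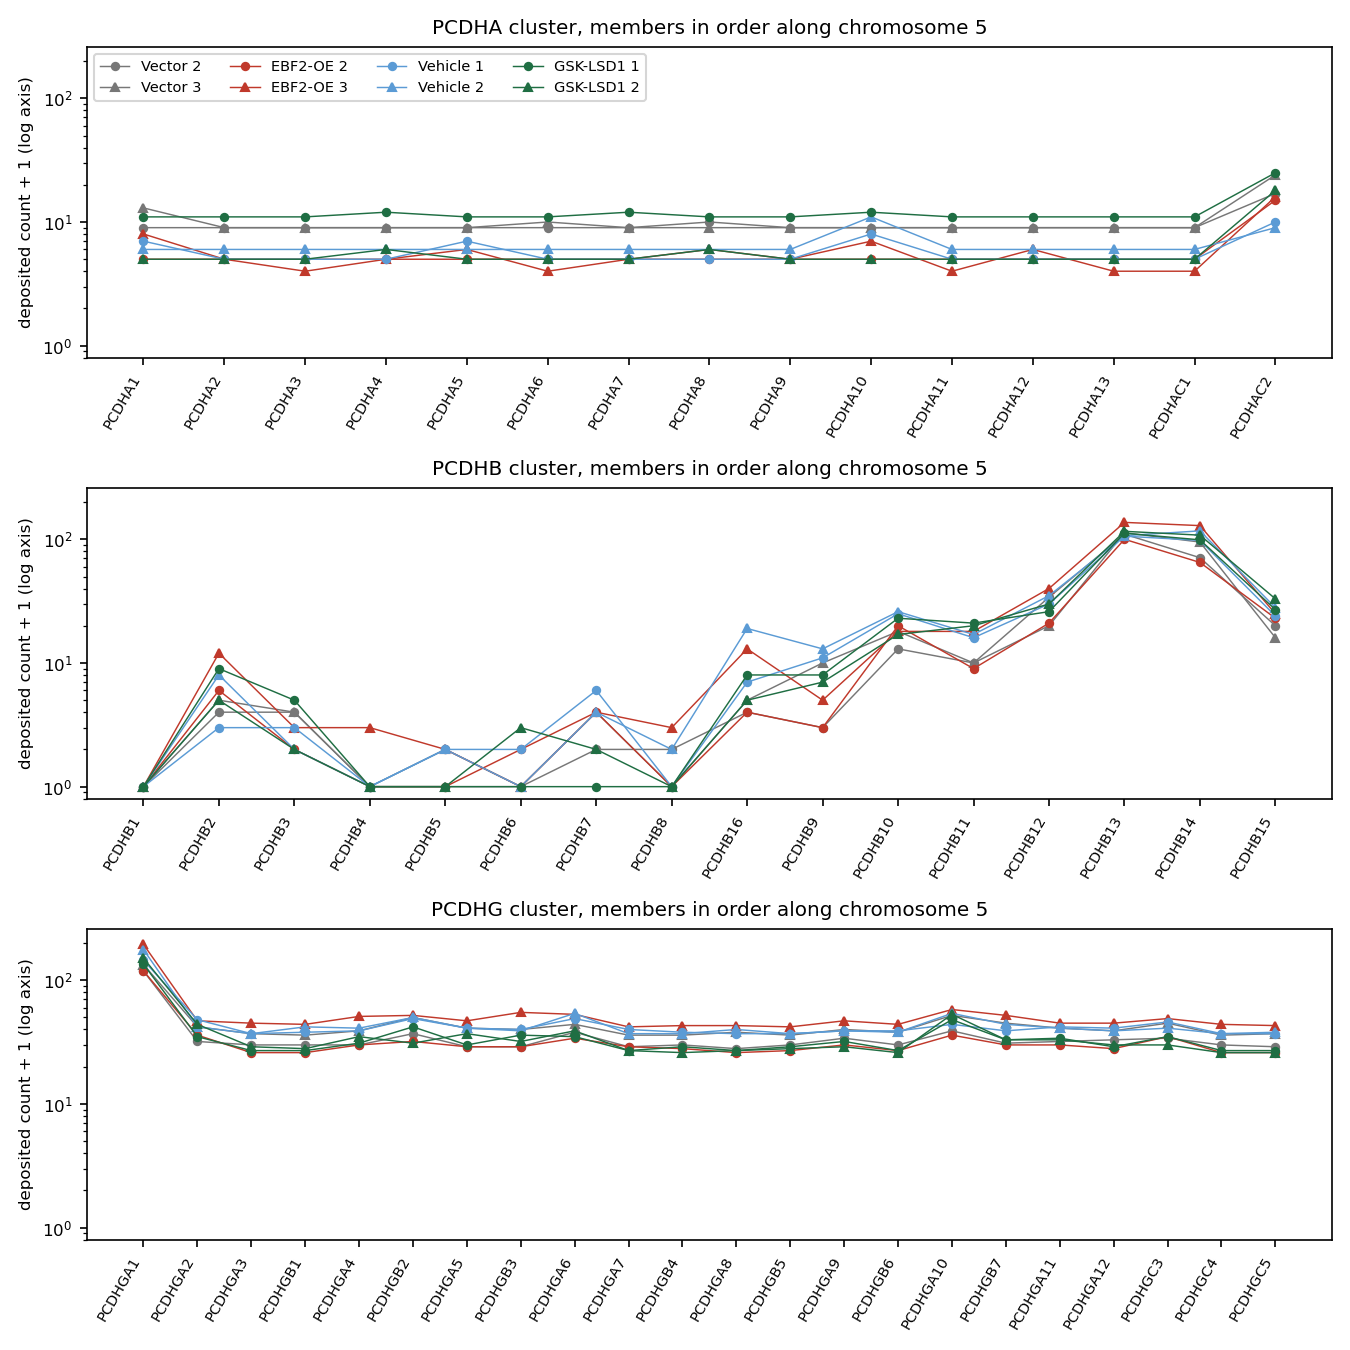
Deposited counts plus 1, on a log axis, of the 53 members in their order along chromosome 5, with a line for each of the 8 libraries and a panel for each cluster. PCDHA counts stay between 3 and 12 up to PCDHAC2 and PCDHG counts between 25 and 57 after PCDHGA1, while PCDHB counts run from 0 in PCDHB1 to 136 in PCDHB13.

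PCDHA members were close to the limit of detection. The mean level over the 8 libraries lay between 0.0520 and 0.311 TPM, a scale that takes gene length into account. PCDHA3, PCDHA11, PCDHA13 and PCDHAC1 had the lowest count of the cluster in every library, 3 to 10 counts. Which of these reads came from their first exons and which from shared exons cannot be told apart in these counts. PCDHA10 had 0 to 5 own reads and PCDHA1 had 0 to 4, the largest amounts after PCDHAC2. PCDHAC2, one of the C-type isoforms, which neurons use constitutively rather than by choice, had 16 and 23 counts in Vector, 14 and 15 in EBF2-OE, 9 and 8 in Vehicle, and 24 and 17 in GSK-LSD1 cells. Of these counts, 8 and 15, 10 and 12, 5 and 3, and 14 and 13 were own reads in the same order. By this measure PCDHAC2 was the only PCDHA member with own reads in all 8 libraries.

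PCDHB members, each counted on its own exon, differed widely among themselves. PCDHB13 had 109 and 112 counts in Vector, 99 and 136 in EBF2-OE, 105 and 106 in Vehicle, and 111 and 115 in GSK-LSD1 cells. PCDHB14 had 70 and 94 counts in Vector, 64 and 128 in EBF2-OE, 97 and 116 in Vehicle, and 98 and 107 in GSK-LSD1 cells. Their mean levels were 2.51 and 2.46 TPM, and together they held 60.5 to 71.3% of all PCDHB counts of a library. PCDHB12 followed at a mean of 0.838 TPM with 19 to 39 counts. PCDHB15 had 15 to 32 counts and a mean of 0.669 TPM, and PCDHB10 had 12 to 25 counts and 0.646 TPM. These 3 lay at similar levels, and their count ranges overlapped.

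Position along the array went with level in every library. The last 6 members of the PCDHB array, PCDHB10 to PCDHB15, held 88.3 to 94.7% of the PCDHB counts of a library. The first 8 members, PCDHB1 to PCDHB8, held 2.38 to 5.28%, or 8 to 21 counts in all. PCDHB1 had 0 counts in all 8 libraries, and PCDHB4, PCDHB5, PCDHB6 and PCDHB8 never exceeded 2 counts. This grouping by position was made after the values were seen and is a description.

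The PCDHG cluster had 1 member that stood apart. PCDHGA1, the first gene of the cluster, had 118 and 133 counts in Vector, 118 and 194 in EBF2-OE, 144 and 176 in Vehicle, and 134 and 150 in GSK-LSD1 cells. It held 50.4 to 60.6% of the own reads of the cluster, and its lowest count exceeded the highest count of every other PCDHG member. Per kb of its own 4126 nt it had 22.1 to 37.1 own reads, which was 1.48 to 2.64 times the lowest PCDHG count per kb of shared exons. Its own sequence in the annotation exceeds the canonical first exon of 2592 nt, so that not all of these reads need come from the spliced transcript. PCDHGA10 had 7 to 27 own reads and PCDHGA6 had 8 to 17. PCDHGC3, the C-type member that is also known outside the nervous system, had 4 to 9 own reads. PCDHGC4 had 0 to 2 and PCDHGC5 had 0 to 1, and these shared the lowest mean count of the cluster, 31.9.

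**Figure D2:**
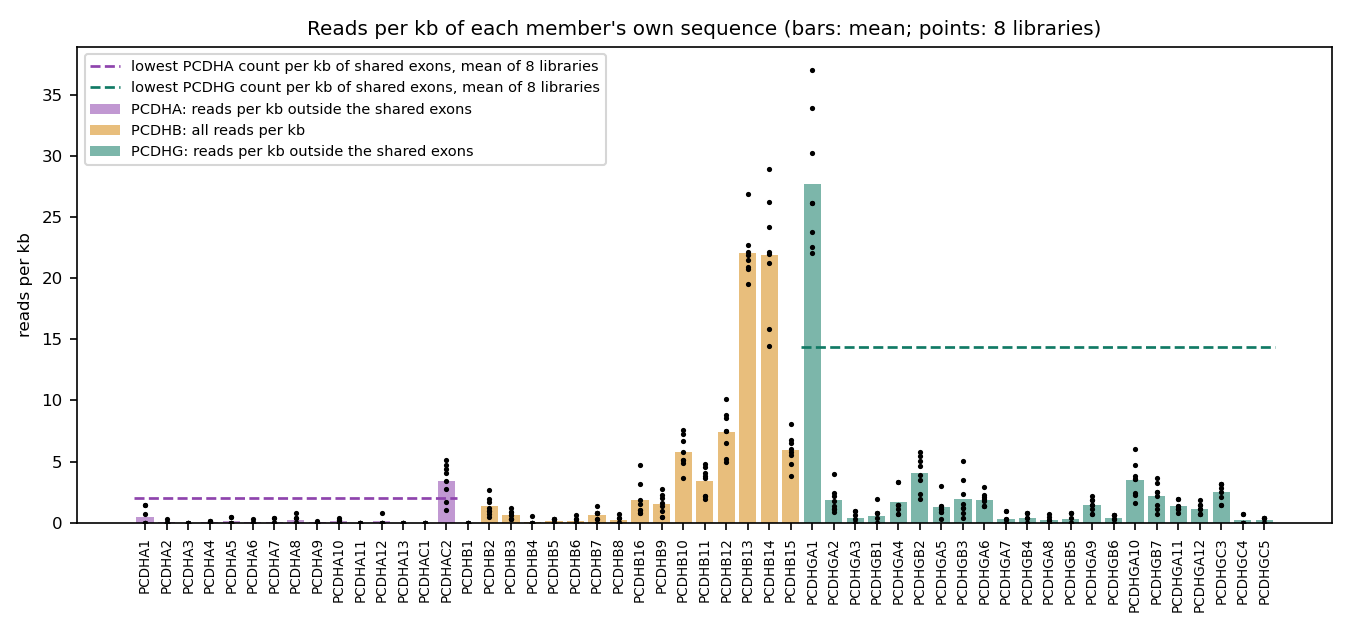
Reads per kb of each member's own sequence, with bars for the mean and points for the 8 libraries, for PCDHA, PCDHB and PCDHG members in order along chromosome 5. Dashed lines give the mean of the lowest count per kb of shared exons. PCDHB13, PCDHB14 and PCDHGA1 stand above all other members, and PCDHAC2 is the highest of the PCDHA cluster.

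Promoter sequence was compared with these levels, since each member has a promoter of its own. RefSeq promoters of GRCh38.p14, from 250 bases before to 50 bases after the start, matched 47 of the 53 members. Most clustered protocadherin promoters are known to carry a conserved element around CGCT that CTCF can bind. CGCT stood in all matched members but PCDHA9, on the strand of the gene, and in 54.3% of all 35116 promoters. The longer form GTGGCGCT, which holds CGCT, was on the gene strand in 13 of 14 PCDHB promoters, the exception being PCDHB1. It was found in no matched PCDHA or PCDHG promoter and in 0.638% of all promoters on that strand, or 1.15% on either strand. GCCGCTGT was in 11 PCDHG members and 0.897% of all promoters on the gene strand (1.64% on either), and GTCGCTGT in 6 PCDHG and 5 PCDHA members and 0.333% (0.652%). These letters were chosen after the promoters had been read, so that the shares are a description. The windows set PCDHB members at the top of the range beside members near 0, with capitals for the 8 letters and 20 bases on each side.
PCDHB13, chr5:141213857-141213904, forward strand: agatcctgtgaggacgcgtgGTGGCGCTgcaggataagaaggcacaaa
PCDHB14, chr5:141223255-141223302, forward strand: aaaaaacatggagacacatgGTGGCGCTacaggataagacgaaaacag
PCDHB4, chr5:141121715-141121762, forward strand: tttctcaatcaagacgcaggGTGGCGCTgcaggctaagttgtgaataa
PCDHB5, chr5:141135171-141135218, forward strand: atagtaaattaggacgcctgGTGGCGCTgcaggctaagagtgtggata
PCDHB8, chr5:141177769-141177816, forward strand: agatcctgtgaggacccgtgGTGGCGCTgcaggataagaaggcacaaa
PCDHB13 with 99 to 136 counts and PCDHB8 with 0 to 2 counts were identical at 47 of 48 positions here. The difference was G16C, counted from 1 at the 5′ end with the PCDHB13 base first. Where their promoter windows overlap when aligned on the motif, 243 of 259 positions, or 93.8%, were identical. The motif began 42 bases before the annotated start in PCDHB13 and 1 base before it in PCDHB8. Its presence therefore did not separate high from low PCDHB members.

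In the PCDHG cluster GCCGCTGT stood in the promoter of PCDHGA1, the member with the most own reads, and of PCDHGA10. It also stood in PCDHGA7, PCDHGA8, PCDHGB4, PCDHGB5, PCDHGB6 and PCDHGC4, which had at most 3 own reads in every library. The other carriers, PCDHGB1, PCDHGA9 and PCDHGC3, had 0 to 5, 2 to 6 and 4 to 9 own reads. The letters thus stood in members with many and with few own reads, and whether they go with the level was not tested. PCDHGA6 carried the other form, which the cluster has in common with PCDHA members such as PCDHA1.
PCDHGA1, chr5:141330397-141330444, forward strand: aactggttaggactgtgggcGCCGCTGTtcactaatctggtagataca
PCDHGA10, chr5:141412925-141412972, forward strand: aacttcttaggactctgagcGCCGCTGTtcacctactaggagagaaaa
PCDHGA6, chr5:141373829-141373876, forward strand: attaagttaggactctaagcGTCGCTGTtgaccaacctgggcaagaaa
PCDHA1, chr5:140786080-140786127, forward strand: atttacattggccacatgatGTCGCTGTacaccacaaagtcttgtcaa
PCDHAC2 carried none of the 8-letter forms. The promoter windows of PCDHAC1 and PCDHAC2 had a GC content of 66% and 63%, with 27 and 15 CpG dinucleotides. Those of the 11 matched PCDHA genes had a median GC content of 36% and 3 to 9 CpG dinucleotides, against a median of 58.7% over all promoters. PCDHGC windows, the other C-type promoters, had a GC content of 59 to 62.3%.

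Similar stretches can limit how reads are placed. Windows of 150 nt, the read length, that occur again elsewhere in the locus were found in the exon of 14 of 16 PCDHB members, in the first exon of 6 of 15 PCDHA members and of 10 of 22 PCDHG members. The share of an exon that was repeated reached 17.9% in PCDHB10, 19.1% in PCDHA7 and 14.1% in PCDHGB5. It was 17.0% in PCDHB8 and 10.5% in PCDHB13, so that most of both exons had no exact repeat of this length. In windows of 75 nt the shares were 36.0% and 18.5%. Stretches that differ at a few bases were not counted. How multiply aligned reads were treated was not stated, and the part of repeats in the low counts was not tested.

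As to the libraries, totals on genes lay between 20453362 and 27054876, and the summed member counts made 0.00506 to 0.00721% of them. Taking the lowest PCDHA and PCDHG count once instead of once for each member gave 0.00221 to 0.00323%. EBF2 had 28 counts in each Vector library and 5818 and 90100 counts in the EBF2-OE libraries. Among 7 epithelial markers KRT8, KRT18, KRT7 and MUC1 were high, but EPCAM, CDH1 and KRT19 stayed at or below 1.57 TPM in every library. Among 8 neuronal markers, with a summed level of 105 to 437 TPM, TUBB3 alone held 102 to 433 TPM. Summed levels were 50.8 to 66.8 TPM over 6 fibroblast, 16.3 to 35.2 TPM over 5 lymphoid and myeloid and 0.503 to 5.02 TPM over 3 endothelial markers. By edgeR's quasi-likelihood test with the limits used for the members, 0 of these markers were called in EBF2-OE cells. There 0 of all 15560 genes tested were called. Under GSK-LSD1, KRT7 and CDH5 were lower and MAP2 was higher. Between the controls 1 epithelial, 2 fibroblast and 2 endothelial markers were lower and 1 neuronal and 1 myeloid marker were higher in Vector, and the part of these differences in the results was not tested.

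The first comparison asked whether members changed with EBF2 overexpression. None was called: of the 28 members with enough counts for edgeR's quasi-likelihood test, 0 were called, as were 0 of the 15560 genes tested (0%). EBF2 itself was not called either, at 28 counts in each Vector library and 5818 and 90100 counts in EBF2-OE. The absence of calls therefore does not show that members were unchanged. A call needed a change of more than 1.5-fold and a false discovery rate (FDR, the p-value adjusted by Benjamini and Hochberg) under 0.05. At an unadjusted p-value under 0.05, 0 members and 208 genes passed, and DESeq2 called 0 members. The tested members were 1 of the PCDHA, 5 of the PCDHB and 22 of the PCDHG cluster. Log2 fold changes were above 0 in 27 of 28, with a median of 0.15 against 0.00348 over all genes tested. This count covers members that passed the low-count filter. Without the filter 35 of 52 were above 0 and 17 below, and the latter held all 15 PCDHA members, with a median of -0.92. All 15 PCDHA members had lower CPM values in both EBF2-OE libraries than in both Vector libraries. Among all genes tested, the groups did not overlap in 22.9%, in either direction. The PCDHA members share most of their reads and are not 15 measurements. By edgeR without the filter, 0 of them had an unadjusted p-value under 0.05. EBF2-OE 3 was the library with the highest level of all 22 PCDHG members among the 8 libraries. It also had the higher EBF2 level, but this is a single library and a link was not tested. Without EBF2-OE 3, 4 of 29 tested members were above 0 and the median was -0.17. The 22 PCDHG values may share many of their reads and are not 22 measurements. PCDHGA1 was the exception, with 91 to 153 own reads of 118 to 194 counts.

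Among single members, PCDHGA1, which had the most own reads, showed the smallest unadjusted p-value, 0.217. PCDHGA1 was at 5.55 and 5.59 CPM (TMM-normalized counts scaled to a common library size) in Vector and at 5.79 and 8.65 CPM in EBF2-OE. The EBF2-OE libraries were both higher, the nearer of them by less than they differed from each other. Its log2 fold change was 0.38 ± 0.273 (SE) (edgeR, Benjamini-Hochberg FDR = 1.00). PCDHB13 was at 5.13 and 4.70 CPM in Vector and 4.85 and 6.07 CPM in EBF2-OE, and its groups overlapped (log2 fold change 0.15 ± 0.255, SE). PCDHB14 was at 3.29 and 3.95 CPM in Vector and 3.14 and 5.71 CPM in EBF2-OE, which surrounded the Vector values. Its log2 fold change was 0.29 ± 0.365 (SE). PCDHAC2 went the other way, at 0.753 and 0.966 CPM in Vector and 0.686 and 0.669 CPM in EBF2-OE (log2 fold change -0.34 ± 0.462, SE). In the own reads of PCDHAC2 alone the log2 fold change was 0.02. In 4 of the 28 tested members the libraries of the groups did not overlap, against 22.9% of all genes tested.

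The second comparison asked whether members changed under GSK-LSD1. Of 29 members tested, 1 was higher and 0 were lower by the same test, where 4.57% of the 16059 genes tested were called in either direction. The member called was PCDHAC2, at 0.364 and 0.293 CPM in Vehicle and 1.05 and 0.754 CPM in GSK-LSD1 cells. The means were 0.329 ± 0.0505 and 0.902 ± 0.210 CPM (SD, n = 2 libraries each), and both treated libraries were above both controls. The log2 fold change was 1.45 ± 0.439 (SE) (edgeR, Benjamini-Hochberg FDR = 0.0427). In own reads alone, 5 and 3 in Vehicle against 14 and 13 in GSK-LSD1 cells, it was 1.91 ± 0.579 (SE) (edgeR, Benjamini-Hochberg FDR = 0.0418). Own reads are part of the same counts and give no independent support. PCDHAC2 passed the low-count filter only through the GSK-LSD1 libraries, with 24 and 17 counts against 9 and 8 in Vehicle. The call rests on few counts: it was lost when any of the 4 libraries was left out, with edgeR FDR values of 0.0904 to 0.294 there, and DESeq2 gave an unadjusted p-value of 0.0497 but no adjusted one. Fitting all 8 libraries as a single model gave an FDR of 0.192 by edgeR (Benjamini-Hochberg).

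Set beside all 4 groups, the Vehicle libraries were the low ones for PCDHAC2. Normalized over the 8 libraries, its level was 0.894 ± 0.208 CPM in GSK-LSD1, 0.871 ± 0.162 in Vector, 0.683 ± 0.0175 in EBF2-OE and 0.325 ± 0.0504 in Vehicle (SD, n = 2 libraries each). Both Vehicle libraries, at 0.361 and 0.289 CPM, lay below the 6 others, of which the lowest was at 0.671 CPM. GSK-LSD1 and Vector, which stand next to each other in this order, overlapped, while Vector and EBF2-OE did not overlap but differed without passing the test.

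PCDHB members were not called under GSK-LSD1. Of 6 tested, 4 had a log2 fold change above 0, with a median of 0.22 against -0.00590 over all genes tested. PCDHB13 was at 4.25 and 3.88 CPM in Vehicle and 4.86 and 5.10 CPM in GSK-LSD1 cells, with groups that did not overlap. Its log2 fold change was 0.29 ± 0.155 (SE) (edgeR, Benjamini-Hochberg FDR = 0.219). PCDHB14 was at 3.93 and 4.25 CPM in Vehicle and 4.29 and 4.75 CPM in GSK-LSD1 cells, which lay close to each other without overlap (log2 fold change 0.14 ± 0.159, SE). The log2 fold change was 0.41 for PCDHB15, -0.02 for PCDHB12 and -0.17 for PCDHB10, with standard errors of 0.307, 0.292 and 0.344. PCDHB11, named after its values were seen, had the largest log2 fold change of the 6, 0.52 ± 0.368 (SE), with 0.607 and 0.586 CPM in Vehicle below 0.876 and 0.843 CPM in GSK-LSD1 cells (edgeR, Benjamini-Hochberg FDR = 0.363). None of these reached the fold limit of 1.5.

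PCDHG members lay mostly below 0 in this comparison and none was called. Of 22 tested, 19 had a negative log2 fold change, with a median of -0.23. The lowest count of the cluster, which bounds the shared reads, was 36 in both Vehicle libraries against 26 and 25 in GSK-LSD1 cells. Tested as a row of its own, the shared count had a log2 fold change of -0.30 ± 0.286 (SE), which did not pass the test (edgeR, Benjamini-Hochberg FDR = 0.514). PCDHGC4 and PCDHGC5, which set or nearly set this lowest count, had log2 fold changes of -0.30 and -0.32, close to it by construction. PCDHGC3 and PCDHGA6 had values of -0.24 and -0.29. PCDHGA1 was at 5.83 and 6.45 CPM in Vehicle and 5.87 and 6.65 CPM in GSK-LSD1 cells, and the groups overlapped (log2 fold change 0.03 ± 0.141, SE). PCDHGA10 had a log2 fold change of 0.24 ± 0.225 (SE) in its full count. In its own reads, 7 and 17 in Vehicle and 21 and 27 in GSK-LSD1 cells, the log2 fold change was 1.19 ± 0.434 (SE) (edgeR, Benjamini-Hochberg FDR = 0.0813). Neither value passed the test. Over all 29 tested members the libraries of the groups did not overlap in 20, against 60.2% of all genes tested.

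**Figure D3:**
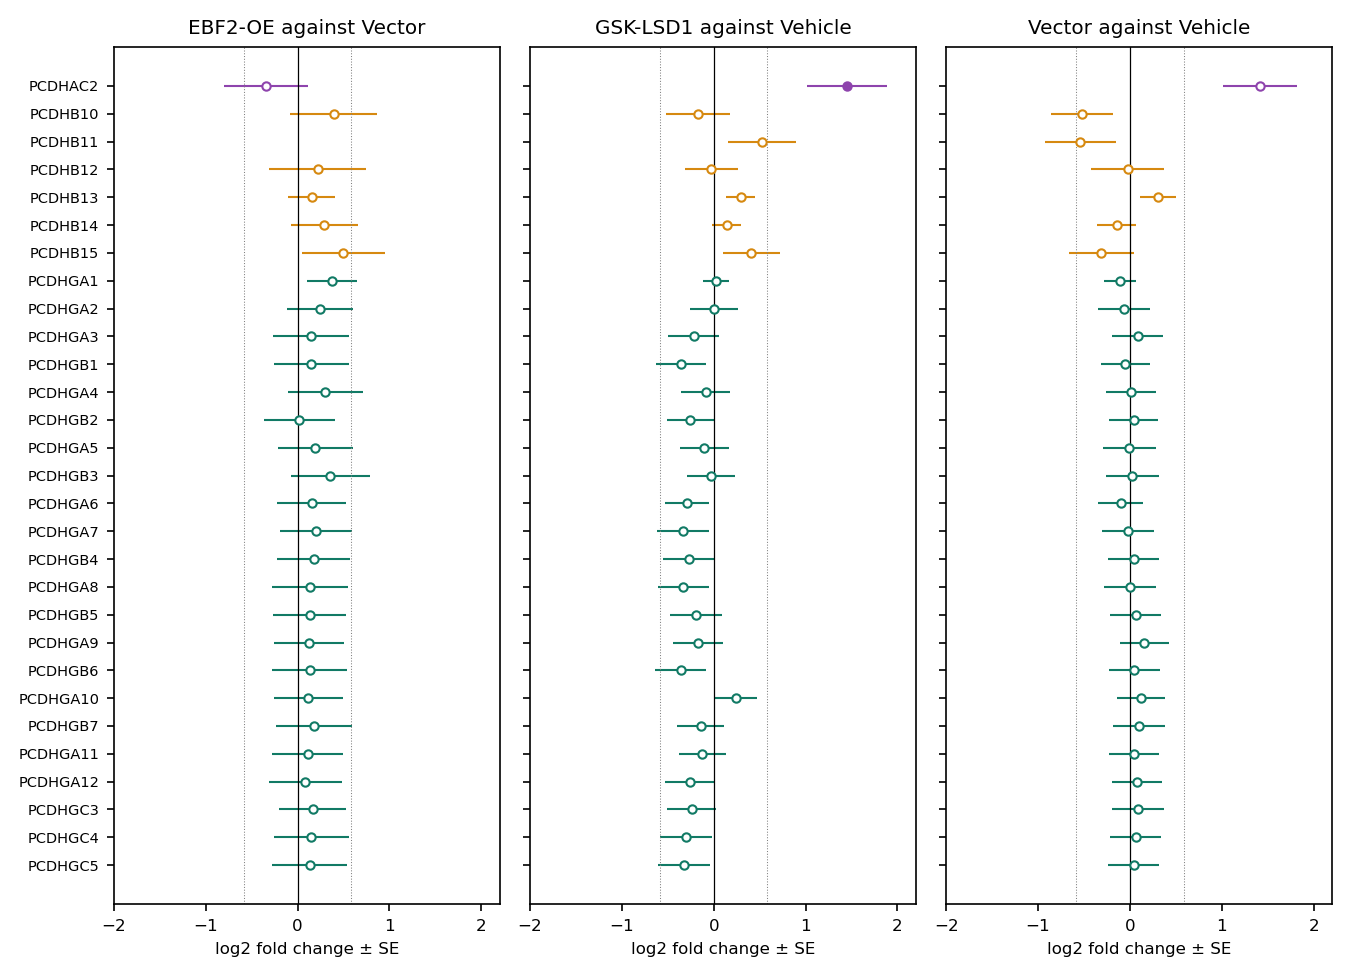
Log2 fold change with its standard error of each tested member in the comparisons EBF2-OE against Vector, GSK-LSD1 against Vehicle and Vector against Vehicle, with filled points for members called and dotted lines at a fold change of 1.5. PCDHAC2 under GSK-LSD1 is the filled point, and the PCDHG points of a comparison lie in a band.

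The third comparison set the controls side by side. Vector and Vehicle differ in the experiment they belong to as well as in what the cells received, and these cannot be told apart. Of 29 members tested, 0 were called by edgeR with Benjamini-Hochberg adjustment, where 16.0% of 16019 genes tested were. PCDHAC2 was nearest, at 0.763 and 0.981 CPM in Vector and 0.362 and 0.291 CPM in Vehicle. Its log2 fold change was 1.41 ± 0.400 (SE) (edgeR, Benjamini-Hochberg FDR = 0.0512), and it was the only member with an unadjusted p-value under 0.05. Here it passed the low-count filter only through the Vector libraries, with 16 and 23 counts against 9 and 8 in Vehicle. DESeq2 called 0 members and gave 0 an unadjusted p-value under 0.05. PCDHB13 had a log2 fold change of 0.30 ± 0.193 (SE), and PCDHB14 and PCDHB10 had values of -0.14 and -0.52 (standard errors 0.212 and 0.342). PCDHB11 had -0.54 ± 0.388 (SE), with both Vector libraries below both Vehicle libraries. PCDHGA1 had a log2 fold change of -0.11 ± 0.173 (SE), and the PCDHG median was 0.04. The groups did not overlap in 8 of 29 members, against 70.9% of all genes tested. Without the low-count filter all 15 PCDHA members were above 0, with a median of 1.05. In 14 of them both Vector libraries lay above both Vehicle libraries. By edgeR 1 of the 15 had an unadjusted p-value under 0.05, and these members may count largely the same reads. This comparison shares the Vector libraries with the EBF2-OE comparison and the Vehicle libraries with the GSK-LSD1 comparison, so that their values for PCDHAC2 are not independent.

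**Figure D4:**
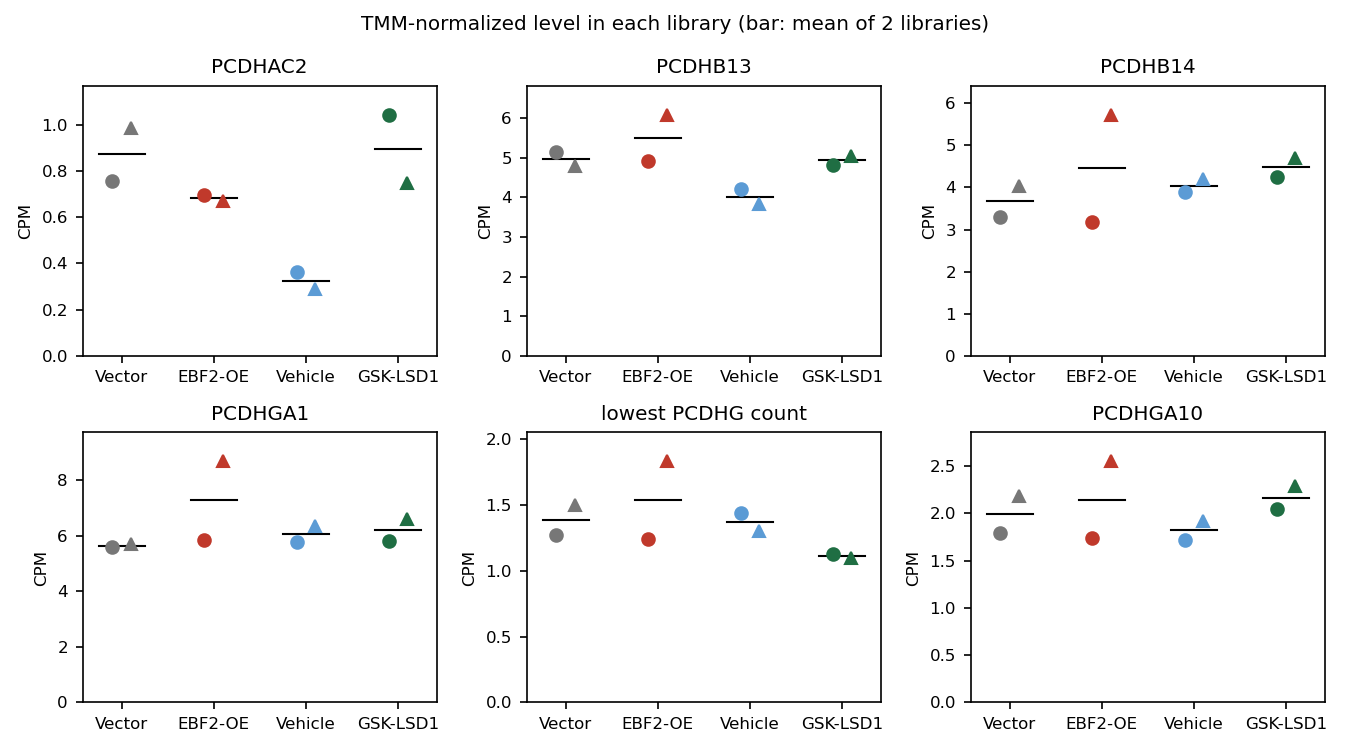
TMM-normalized level in CPM of PCDHAC2, PCDHB13, PCDHB14, PCDHGA1, the lowest PCDHG count and PCDHGA10 in each of the 8 libraries, with a point for each library and a bar for the mean of 2. The Vehicle libraries are the lowest for PCDHAC2, and EBF2-OE 3 is the highest for PCDHB13, PCDHB14, PCDHGA1, the lowest PCDHG count and PCDHGA10.

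Genes that control or serve the clusters were examined from lists. Of 24 genes for transcription and looping at the locus, 23 were tested in each comparison. CTCF, which binds the promoters, was at 32.8 to 57.6 TPM. RAD21, a cohesin subunit, was at 279 to 340 TPM. SMCHD1, a repressor of clustered protocadherins, was at 9.64 to 18.6 TPM, and KDM1A, the target of GSK-LSD1, at 119 to 177 TPM. None of the 23 was called in EBF2-OE or GSK-LSD1 cells by edgeR with Benjamini-Hochberg adjustment. Over all genes tested the shares called were 0% and 4.57%. CTCF had a log2 fold change of -0.23 under GSK-LSD1 (SE 0.0626, edgeR, Benjamini-Hochberg FDR = 0.0277), below the fold limit. Between the controls, SMCHD1 and TET2, which oxidizes methylated cytosine, were higher in Vector by 0.65 and 1.00 on the log2 scale. These calls were lost when a Vehicle library was left out (edgeR, Benjamini-Hochberg FDR 0.0656 to 0.145).

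Of 20 genes for the cleavage and signalling of protocadherins, all were tested and none was called in EBF2-OE or GSK-LSD1 cells. The shares over all genes tested were 0% and 4.57%. ADAM10, the protease that cuts their extracellular part, was at 13.7 to 17.8 TPM. PTK2B, a kinase that clustered protocadherins bind, was lower in Vector than in Vehicle by a log2 fold change of -0.73, a call that was lost without either Vehicle library. Protocadherins outside the clusters were mostly absent, with at most 3 counts in every library for 8 of 13. PCDH7 was the most abundant of them at 4.59 to 14.6 TPM and was called higher under GSK-LSD1 (log2 fold change 0.59 ± 0.0789, SE) and in Vector against Vehicle (1.28 ± 0.274, SE), the latter lost without either Vehicle library. The first of these calls was lost in the fit of all 8 libraries (edgeR, Benjamini-Hochberg FDR = 0.473). Of 10 other cadherins 6 were tested, and CDH3, P-cadherin, was called higher (1.08) and CDH5, the endothelial cadherin, lower (-0.97) under GSK-LSD1. Both were lost in the fit of all 8 libraries (edgeR, Benjamini-Hochberg FDR = 0.208 and 0.123). The CDH3 call was also lost with DESeq2 (adjusted p = 0.142) and without Vehicle 2 or either GSK-LSD1 library, and that of PCDH7 under GSK-LSD1 without Vehicle 2 or GSK-LSD1 1, where its change was below the fold limit. CDH5 was also lower in Vector than in Vehicle, with a log2 fold change of -3.09, and missed the threshold without Vehicle 1 (edgeR, Benjamini-Hochberg FDR = 0.0589). None of these lists had a gene called in EBF2-OE cells, where 0% of all genes tested were called.

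No neighbouring gene passed the test with the fold limit under either treatment. Of 31 other protein-coding genes within 500000 bases of the outermost members, 27 were tested for EBF2 and 28 for GSK-LSD1, and 0 were called in each by edgeR with Benjamini-Hochberg adjustment. Over all genes tested, 0 of 15560 were called for EBF2 and 4.57% of 16059 for GSK-LSD1. The neighbours were thus near the shares over all genes. TAF7, a single-exon gene between the PCDHB and PCDHG clusters that encodes a subunit of the general transcription factor TFIID, was at 138 to 195 TPM in every library. Between the controls, SRA1 was higher in Vector (log2 fold change 0.91) and EIF4EBP3 and ARAP3 were lower (-0.61 and -0.74). There 16.0% of the 16019 genes tested were called. The calls of SRA1, EIF4EBP3 and ARAP3 were lost when a Vehicle library was left out.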

How the data were processed

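SW1990 poly(A) RNA was prepared with the NEBNext Ultra kit and sequenced in paired reads of 150 bases. The authors aligned reads to hg38 with HISAT2 and deposited gene counts from HTSeq, with TPM values that were recomputed here from the deposited counts and lengths without difference. Strand setting and the handling of reads shared between genes are not given in the sources used here. The columns were assigned to samples by their names. Genes passing filterByExpr (minimum count 10) were tested with edgeR 4.0.16 (R 4.3.3, TMM, quasi-likelihood, limma 3.58.1), on the 4 libraries of each comparison, and called where the change exceeded 1.5-fold and the p-value, adjusted by Benjamini and Hochberg over all genes tested, was under 0.05. Standard errors were taken from the test statistic. CPM values use TMM-scaled library sizes. The test was tried on simulated data with known changes, drawn without reads shared between genes, and no result here rests on that trial. The floor of 3 counts covers counting error only, while the standard errors also hold the estimated spread between libraries.

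Named members were those called, the 5 PCDHB members of highest mean TPM, the 3 PCDHA and 3 PCDHG members with the most own reads, the members of lowest mean count and the C-type members. PCDHB1, PCDHB4, PCDHB5, PCDHB6, PCDHB8, PCDHB11 and members with a printed or named promoter motif were named after their values were seen. Of the listed genes, those called were named, at most 4 in a list and comparison. The members and gene lists were chosen with earlier results of these data known. Alternatives were DESeq2 1.42.0, its size factors in edgeR, other count filters, a fit of all 8 libraries, own reads, each library left out, the replicate number as a block, no fold limit and unadjusted p-values. Same-numbered libraries deviated together in EBF2-OE and Vector (correlation 0.333 over genes) but not in GSK-LSD1 and Vehicle (-0.0303). Python 3.11.15, numpy 2.4.6, pandas 2.3.3 and matplotlib 3.10.9 were used for the rest.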

Additional observations from a re-analysis of the deposited data

How the results depend on the processing

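The number of members called was 0 for EBF2-OE against Vector under every alternative run. For GSK-LSD1 against Vehicle it was 1 and became 0 with DESeq2 and in the fit of all 8 libraries. The call was also lost with any library left out. With at least 10 counts required in every library the number was 0 because PCDHAC2, with 9 and 8 counts in Vehicle, was not tested. For PCDHAC2 the adjusted p-values by edgeR ranged from 0.0326 to 0.294 over these alternatives. For Vector against Vehicle it was 0 and became 1 in the fit of all 8 libraries (PCDHAC2, adjusted p = 0.0364 by edgeR), at an unadjusted p-value with the same fold limit, and without Vector 2 (adjusted p = 0.0443 by edgeR), with a range of 0 to 1 over libraries left out. A group left with 1 library was taken to vary like the others. The share of counts within 1 of the commonest was 35.2% for PCDHB and 34.7% for PCDHG, against 24.2% and 23.3% for equal counts. With each library left out, the share of equal counts was 73.3 to 81.9% for PCDHA, 22.3 to 25% for PCDHB and 22.1 to 24.7% for PCDHG.

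Some small log2 fold changes turned sign. For EBF2-OE against Vector, PCDHAC2 was at 0.0198 in own reads, and leaving out libraries gave -0.0170 to 0.30 for PCDHB13 and -0.21 to 0.65 for PCDHB14, both negative without EBF2-OE 3. For GSK-LSD1 against Vehicle the ranges were -0.40 to 0.0330 for PCDHB10, -0.14 to 0.0907 for PCDHB12 and -0.0644 to 0.12 for PCDHGA1. The cause was not tested.

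The replicate number as a block left the number of members called at 0 for EBF2-OE and 1 for GSK-LSD1, where PCDHAC2 had an adjusted p-value of 0.0354 by edgeR, and changed no other call among the members. No block could be fitted between Vector and Vehicle, which have 1 number in common. Over all genes, EBF2-OE calls rose from 0 to 64 higher and 10 lower without a low-count filter and to 6 and 1 with DESeq2. GSK-LSD1 calls, 406 higher and 328 lower, were 85 and 15 in the fit of all 8 libraries and 298 and 191 with DESeq2. Vector against Vehicle calls, 927 and 1631, were 1581 and 2678 without Vector 2, 2 and 10 without Vehicle 1, and 34 and 201 without Vehicle 2.

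PCDHA members other than PCDHAC2 had 3 to 12 counts a library and did not pass the low-count filter. Without it all 15 were tested, and PCDHAC2 was the only one with an FDR under 0.05, for GSK-LSD1 (edgeR).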
